A study of Mus musculus with 4 samples.

Results

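The regions described here are the 100 kb bins of mouse chromosomes 7 and 15 in build mm8, read out by chromatin immunoprecipitation and sequencing (ChIP-seq) of total histone H3. A bin was kept when it held a mean of 20 or more distinct read positions over the 4 libraries. This left 1322 of the 1452 bins spanned by chromosome 7 and all 1005 bins of chromosome 15 that held a read, of 1035 spanned. Together these are 2327 of the 23628 autosomal bins that passed the same rule. The 2 chromosomes were selected on the myotube read share, which was below that of untreated embryonic stem (ES) cells on chromosome 7 and above it on chromosome 15. The size and direction of that shift are therefore given as a description, with no test. At the threshold, the chromosome 7 bin from 10100001 to 10200000 was just inside, at a mean of 20.8 positions, and the bin from 13600001 to 13700000 just outside, at 19.8. On chromosome 15 no bin lay near the threshold, since the poorest member, from 3000001 to 3100000, had a mean of 40 positions and the other bins had none.

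Each of 4 groups had 1 library. The myotubes were made from C2C12, a line of mouse muscle precursors, over 48 h in 2% horse serum with added selenium, transferrin and insulin. 38B9 is a mouse pro-B line, kept in ordinary medium with fetal calf serum. V6.5 ES cells, of C57BL/6-129 background, had been raised on irradiated mouse embryonic fibroblasts and then passaged off them onto gelatin, and received the TGF-beta receptor inhibitor SB431542 at 10 uM for 24 h or, in the last group, no treatment. All 4 shared an antibody against total H3 (Abcam AB1791), and no input library was used here. No condition can be tested against another with 1 library each, nothing below has a replicate check, and all intervals are 95% intervals for counting error alone. The libraries held 12432118 (myotube), 13015879 (pro-B), 13469179 (SB431542-treated ES) and 13132855 (untreated ES) distinct autosomal positions, and every ratio below is between shares of these totals. By the file headers the SB431542 library belonged to a separate run, so its treatment and its run cannot be told apart. No gene was placed on the bins, so the labelled cell types could not be checked against marker genes.

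Histone H3 is one of the core histones around which DNA is wrapped, and nucleosomes lie along the whole genome. The number of H3 reads from a region therefore follows both how many copies of that DNA the cells hold and how much H3 is recovered per copy. Established cell lines often gain or lose whole chromosomes or parts of them in culture, which would move all bins of the chromosome or part by a common factor. In the mouse, chromosome 7 carries the muscle regulator Myod1, the beta-globin genes, the imprinted Igf2 and H19 genes and the pigment gene Tyr. Chromosome 15 carries Myc, a growth regulator, Col2a1, which encodes a cartilage collagen, and the Hoxc genes, which pattern the body axis. These are chromosome assignments of the GRCm38 annotation, and no gene has a measured value here.

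Chromosome 7 took 3.92% of autosomal positions in myotubes, 4.95% in pro-B, 5.08% in SB431542-treated and 5.20% in untreated ES cells. The myotube share was the lowest, and the other 3 libraries lay close together. It was 0.752 times the untreated ES share (0.7496 to 0.7552, from 486691 against 683317 positions), 0.771 times the SB431542-treated share and 0.790 times the pro-B share. Chromosome 15 took 5.48% of positions in myotubes, against 4.36% in pro-B, 4.30% in SB431542-treated ES and 4.30% in untreated ES cells. Here myotubes stood above all 3. Their share was 1.27 times that of untreated ES cells (1.270 to 1.279, from 680815 against 564128 positions), 1.27 times that of treated ES cells and 1.26 times that of pro-B cells. On the 17 other autosomes the ratio of myotubes to untreated ES cells ran from 0.956 to 1.04.

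The libraries other than myotubes differed much less. Pro-B cells had 0.952 times the untreated ES share on chromosome 7 (0.949 to 0.955), below the 0.965 to 1.08 of the 16 autosomes other than 7, 8 and 15, but 1.013 times when scaled to the median autosomal bin. On chromosome 15 they had 1.015 times the share (1.011 to 1.019), but 0.997 times when scaled to the autosomes other than 7, 8 and 15. The directions of both pro-B values thus depend on the scaling. SB431542-treated ES cells had 0.976 times the untreated share on chromosome 7 (0.973 to 0.979), just under the lowest of the 17 other autosomes at 0.978. On chromosome 15 the interval of their ratio held 1 (0.9965 to 1.004).

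**Figure D1:**
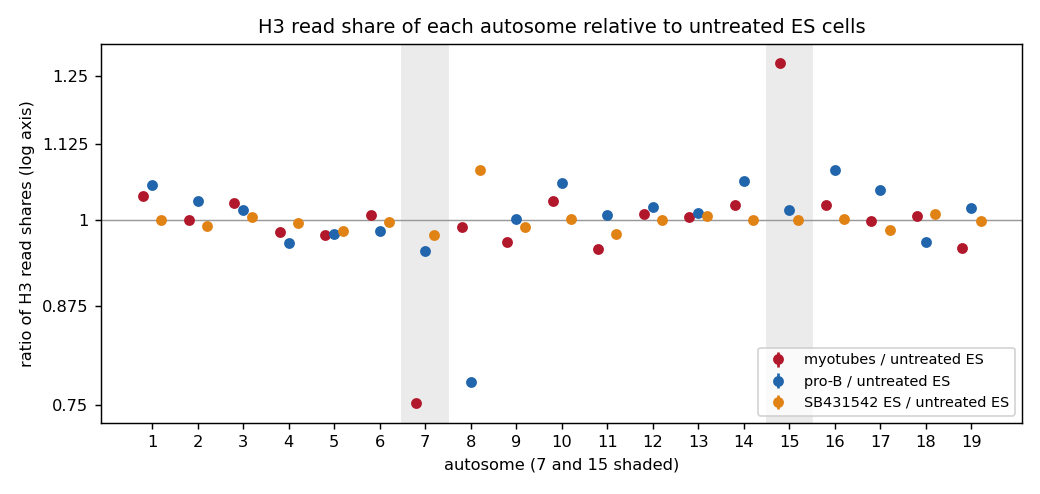
Ratio of H3 read shares to untreated ES cells (y, log axis) for the 19 autosomes (x), with points for the myotube, pro-B and SB431542-treated libraries and 95% counting intervals mostly smaller than the points. On the shaded chromosomes the myotube points stand at 0.752 (chromosome 7) and 1.27 (chromosome 15), while the other points lie between 0.952 and 1.015.

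Reads with 2 reported places, which the choice of bins did not use, were looked at in the same way. They come from the same libraries, on chromosomes chosen for their myotube level, so they are not a separate check. On chromosome 7 myotubes had 51189 such lines against 65981 in untreated ES cells, a share ratio of 0.823. The 2-place ratio of the 16 autosomes other than 7, 8 and 15 ran from 0.919 to 1.09. Chromosome 7 thus lay below that range, though nearer to parity than in reads with 1 place. On chromosome 15 the ratio was 1.19, above the range, from 28881 against 25772 lines. A 2-place read can be listed on 2 chromosomes and each read gives 2 lines, so no interval is given.

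The shift of chromosome 7 covered nearly all of its bins. Of the 1322 members, 1299 had fewer reads in myotubes than in untreated ES cells, with a median log2 ratio of -0.40 and 80% of the bins between -0.67 and -0.17. The median bin held 396.5 positions in myotubes, 465 in pro-B cells, 553 in SB431542-treated and 561 in untreated ES cells. By a rule of size, a log2 ratio of 0.5 or more either way (1.41-fold), 429 members were lower in myotubes (32.5%), where 3.44% of all autosomal bins were. Only 2 members were higher, against 1.99% of autosomal bins. The choice of chromosome used this contrast, so nothing is read from these shares. With SB431542-treated ES cells in place of untreated ones, 1295 of 1322 members were below parity in myotubes and the median was -0.38. By the rule of size 342 were then lower and 3 higher, where 3.38% and 1.71% of autosomal bins were.

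The 23 members of chromosome 7 on the other side were, at the median, poorer in reads and richer in 2-place reads than all members. In 11 of them 2-place lines made up 20% or more of all lines, which is called rich in 2-place reads from here on. Their median 2-place share was 11.4%, against 3.59% over all members of the chromosome, and their median depth was 279.8 positions per library, against 503.4. Of the 23, 5 had a log2 ratio of 0.25 or more.

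On chromosome 15, 978 of 1005 members had more reads in myotubes than in untreated ES cells. The median log2 ratio was 0.36, with 80% of bins between 0.11 and 0.59. The median bin held 682 positions in myotubes, 528 in pro-B, 574 in SB431542-treated and 567 in untreated ES cells. By the rule of size 222 members were higher (22.1%) and 1 was lower, where 1.99% and 3.44% of autosomal bins were, and as on chromosome 7 nothing is read from these shares. The 27 members at or below the ES level were about as deep as the rest, with a median of 591.2 positions per library against 596.2, and 5 of them were rich in 2-place reads. All but 1 of the 27 lay within 0.25 of parity. Against SB431542-treated ES cells, 986 of 1005 members were above parity, and 181 were higher by the rule of size, against 1.71% of autosomal bins.

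Around its own median, the log2 ratio of the bins spread on chromosomes 7 and 15 within the range of other autosomes. Its standard deviation (SD) over bins was 0.21 on chromosome 7 and 0.19 on chromosome 15, where the 16 autosomes other than 7, 8 and 15 had 0.18 to 0.62, with a median of 0.20. Counting alone would give 0.12 and 0.084, so the spread was 1.79 times that of counting on chromosome 7 and 2.19 times on chromosome 15. On the 16 others it was 1.93 to 4.37 times, so by this multiple of counting chromosome 7 lay below all of them. Its SD itself was larger than on 9 of the 16, and its spread by the median absolute deviation, at 0.21, larger than on 13. The spread exceeded that of counting on both chromosomes, as on all 16 others. It therefore cannot tell whether the shift itself was flat along the chromosome. Medians over 50 neighbouring members spanned a range of 0.44 on each chromosome, against 0.38 to 0.61 on the 16 others.

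On chromosome 7 the lowest of these running medians was -0.66, over members from 17600001 to 26300000. The highest was -0.23, over members from 86500001 to 91500000. On chromosome 15 they ran from 0.14, at 95900001 to 100900000, to 0.58, at 66300001 to 71300000. At no point did a running median of 50 members reach parity on either chromosome.

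**Figure D2:**
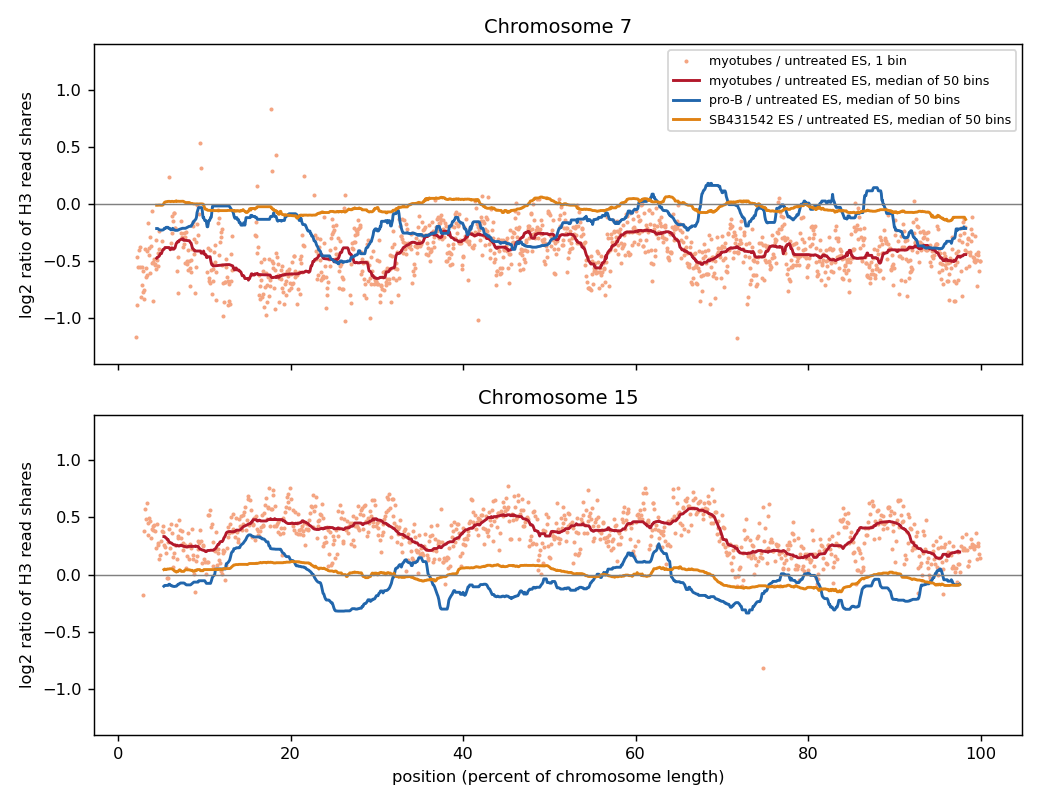
Log2 ratio of H3 read shares to untreated ES cells (y) against position in percent of chromosome length (x), with small points for single 100 kb bins of the myotube library and lines for medians of 50 neighbouring bins of the myotube, pro-B and SB431542-treated libraries. The myotube line stays between -0.66 and -0.23 on chromosome 7 and between 0.14 and 0.58 on chromosome 15, while the SB431542 line stays between -0.15 and 0.12.

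A single best split was sought along each chromosome, as the point where 2 pieces of 20 or more bins leave the smallest squared deviations. On chromosome 7 it fell at 47300001. Before it the myotube share was 0.694 times that of untreated ES cells (0.6888 to 0.6999, 347 bins), and from there on 0.769 times (0.766 to 0.772, 975 bins). The medians of the pieces differed by 0.16 on the log2 scale. With SB431542-treated ES cells in the place of untreated ones the split fell at the same bin, with 0.722 times before it and 0.784 times after.

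On chromosome 15 the split fell at 72800001, with 1.32 times the untreated ES share before it (1.312 to 1.323, 698 bins) and 1.18 times after it (1.176 to 1.191, 307 bins). The medians differed by -0.18. This split did not hold with the other ES library. Against SB431542-treated cells the same pieces lay at 1.286 and 1.249 times, and the best split moved to 13100001 with the opposite sign, at 0.16. The ratio of treated to untreated ES cells itself was 1.025 before 72800001 (1.020 to 1.029) and 0.947 from there on (0.941 to 0.954).

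Steps of this size were found on other autosomes too. Best splits on the 16 autosomes other than 7, 8 and 15 had sizes from 0.052 to 0.30 with a median of 0.15, and 10 of them were smaller than that of chromosome 7 and 11 smaller than that of chromosome 15. Chromosome 8 in myotubes had a step of 0.52. Over SB431542-treated ES cells the best splits had sizes of 0.13 on chromosome 7 and 0.16 on chromosome 15. The 16 others then had 0.037 to 0.22 with a median of 0.10. Of these, 13 were smaller than that of chromosome 7 and 14 smaller than that of chromosome 15. On neither chromosome 7 nor chromosome 15 did a piece on one side of the split return to the level of the other autosomes.

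Cut into 10 segments of equal length, chromosome 7 was lower in myotubes throughout. The ratio to untreated ES cells was 0.7395 in segment 1, 0.658 in segment 2 (0.648 to 0.667) and 0.713 in segment 3. It was 0.766 in segment 4 and 0.807 in segment 5 (0.798 to 0.816). In segments 6 to 10 it took the values 0.777, 0.772, 0.755, 0.738 and 0.746 along the chromosome. The intervals of the lowest and the highest segment lay far apart, so the level varied beyond counting error. Segment 2 was the lowest against SB431542-treated cells as well, at 0.688, while the highest there was segment 10, at 0.805.

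Chromosome 15 was higher in every segment. Its ratios to untreated ES cells in segments 1 to 5 were 1.217, 1.319, 1.348, 1.240 and 1.354. They were 1.309 in segment 6 and 1.417 in segment 7 (1.401 to 1.432), from 62100001 to 72400000. Segment 8, from 72400001 to 82800000, had the lowest at 1.147 (1.134 to 1.159), and segments 9 and 10 had 1.240 and 1.171. The highest and the lowest segment were neighbours. Against SB431542-treated cells segments 7 and 8 were at 1.385 and 1.223, and segment 1 was the lowest at 1.177. Over the 10 segments the SD of the log2 ratio was 0.080 on chromosome 7 and 0.098 on chromosome 15. The 16 other autosomes had 0.044 to 0.15 with a median of 0.067. Of these, 12 were below chromosome 7 and 13 below chromosome 15. Over SB431542-treated cells the SD was 0.068 on chromosome 7 and 0.067 on chromosome 15, each above 12 of the 16 others.

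The chromosome levels were set beside fractions of small whole numbers, as a gain or loss of whole copies would give. Copy number was not measured, and without an input library it cannot be told apart from H3 per copy. Relative to the median of the 16 other autosomes, chromosome 7 stood at 0.748 in myotubes over untreated ES cells (0.746 to 0.751). That is 0.229% below 3/4, and the interval held this fraction. Over SB431542-treated cells the level was 0.763, 1.77% above 3/4, and over pro-B cells 0.808, 7.75% above it, and neither interval held it. The pro-B value depends on the scaling, at 0.790 over the autosomal total and 0.752 (0.7492 to 0.7548) over the median autosomal bin, where the interval held 3/4.

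Chromosome 15 stood at 1.27 over untreated ES cells (1.263 to 1.272), 1.43% above 5/4 and 4.91% below 4/3. Over SB431542-treated cells it stood at 1.26, 0.986% above 5/4, and over pro-B cells at 1.285, 2.77% above. None of the 3 intervals held 5/4. Over pro-B cells the side of 5/4 depends on the scaling, at 1.256 over the autosomal total and 1.195, below 5/4, over the median autosomal bin. The fractions used were 1, 2 and those with denominators of 2 to 4, and 5/4, 4/3 and 3/2 lie close together. A level between 5/4 and 4/3 is never more than 3.33% above the lower fraction when that one is nearer, so closeness to 5/4 says little. The choice of the ES library alone moved chromosome 7 by more than its counting interval.

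Stretches of 50 members were not all nearest to the same fraction. The other autosomes were not set beside fractions in this way, so the counts are descriptions alone. Of the 26 such stretches of chromosome 7, 21 were nearest to 3/4 and 5 to 2/3, with levels from 0.643 to 0.828. Of the 20 on chromosome 15, 11 were nearest to 5/4, 8 to 4/3 and 1 to 3/2, with levels from 1.123 to 1.432. Over SB431542-treated cells the counts were 23 and 3 on chromosome 7, and 12, 7 and 1 on chromosome 15. Over pro-B cells the levels ran from 0.617 to 1.14 on chromosome 7 and from 1.08 to 1.61 on chromosome 15.

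**Figure D3:**
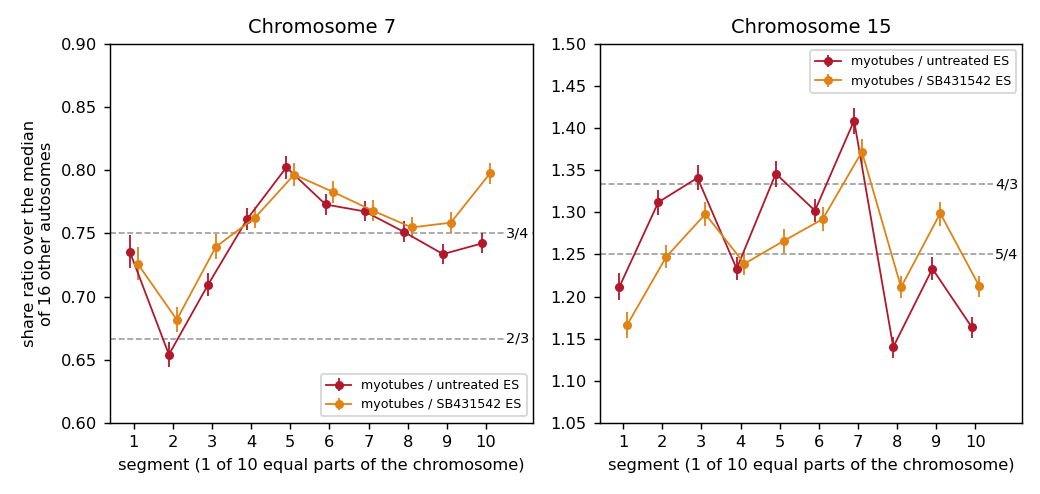
Share ratio of myotubes to untreated or SB431542-treated ES cells, divided by the median ratio of 16 other autosomes (y), in 10 equal segments of chromosomes 7 and 15 (x), with 95% counting intervals and dashed lines at 2/3, 3/4, 5/4 and 4/3. On chromosome 7 the values over untreated ES cells run from 0.654 to 0.802, and on chromosome 15 from 1.14 to 1.41. Segment levels vary on the 16 other autosomes too, so this spread is a description alone.

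With each chromosome's own median taken out, few members departed from it in myotubes. On chromosome 7, 8 members departed upward by 0.5 or more on the log2 scale (0.605%), where 1.1% of all autosomal bins did, and 10 departed downward (0.756%), where 1.28% did. On chromosome 15, 0 departed upward and 5 downward (0.498%). Chromosome 8, with its large internal steps, adds to the autosomal shares. Without chromosomes 7, 8 and 15 the autosomal shares were 0.259% upward and 0.938% downward. No 3 neighbouring members departed together on either chromosome.

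All 8 upward members of chromosome 7 were rich in 2-place reads, and counting intervals of 5 of them excluded the chromosome's median. The highest was the bin from 25700001 to 25800000, with 73 positions in myotubes, 84 in pro-B, 66 in SB431542-treated and 43 in untreated ES cells. Untreated ES cells had the fewest reads there. It departed by 1.24, and 86.2% of its lines were 2-place lines, at 434 in myotubes, 563 in pro-B, 327 in treated and 335 in untreated ES cells. The bin after it departed by 0.69 with 94 positions in myotubes, 123 in pro-B, 70 in treated and 81 in untreated ES cells. The bin from 26600001 to 26700000 departed by 0.83, with 92 positions in myotubes against 72 in untreated ES cells. Both of these bins also held more pro-B positions than untreated ES positions. The deepest upward member, from 23400001 to 23500000, had 246 positions in myotubes, 149 in pro-B, 270 in treated and 233 in untreated ES cells, which put it at 0.56 above the chromosome's median. It alone of the 8 departed downward in pro-B cells, by -0.45.

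Of the 10 downward members of chromosome 7, 6 were rich in 2-place reads. The lowest, from 104100001 to 104200000, had 69 positions in myotubes, 102 in pro-B, 162 in treated and 165 in untreated ES cells, a departure of -0.77. The 4 others had 1.97% to 16.5% of 2-place lines. They began at 24600001, 24800001, 26400001 and 35000001, the first 3 of them within 2 Mb. The bin from 24800001 to 24900000 had 274 positions in myotubes, 638 in pro-B, 508 in treated and 569 in untreated ES cells, and departed by -0.57 (-0.79 to -0.36). The bin from 24600001 to 24700000 had 283 in myotubes, 714 in pro-B, 463 in treated and 559 in untreated ES cells. In these 2 bins myotubes were lowest and pro-B cells highest. In 10 kb windows of the bin from 24800001, myotubes had 15 to 37 positions in each of the 10 windows, where pro-B cells had 36 to 111, treated ES cells 34 to 68 and untreated ES cells 48 to 65. Myotubes had the fewest positions in every one of these windows, so the low level was not a single gap. The counts are unscaled, the bin was picked for its myotube level and myotubes were low along the whole chromosome. The ranking of the windows is thus a description alone.

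The bin from 35000001 to 35100000 was lower in both myotubes and pro-B cells, with 349 positions in myotubes and 448 in pro-B cells, against 662 in treated and 691 in untreated ES cells. The bin from 26400001 to 26500000 was likewise low in both, with 218 in myotubes, 281 in pro-B, 438 in treated and 435 in untreated ES cells. Both departed by about as much in myotubes, at -0.50 and -0.51, as in pro-B cells, at -0.44 and -0.44. These comparisons share the untreated ES library.

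On chromosome 15 the bin from 77300001 to 77400000 departed the most, by -1.18. It had 95 positions in myotubes, 48 in pro-B, 152 in treated and 177 in untreated ES cells, on a chromosome where myotubes were above the ES level in nearly all bins. Of its lines 81.8% were 2-place lines, and in these myotubes did not fall short, with 596 against 439 in pro-B, 536 in treated and 555 in untreated ES cells. Pro-B cells departed further in this bin, by -1.78. The other downward members departed by -0.51 to -0.55. Among them were 2 bins not rich in 2-place reads. The bin from 98900001 had 496 positions in myotubes, 460 in pro-B, 519 in treated and 590 in untreated ES cells. The bin from 96000001 had 632 in myotubes, 517 in pro-B, 717 in treated and 746 in untreated ES cells. The highest member upward, from 46700001 to 46800000, stayed below the rule of size at 0.41, with 556 positions in myotubes, 280 in pro-B, 399 in treated and 344 in untreated ES cells.

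The 2-place share of a bin went with the spread of its departure. On chromosome 7 the SD of the departure was 0.18 over 837 members with under 5% of 2-place lines, 0.20 over 290 members with 5 to 20%, and 0.29 over 195 members with 20% or more. Counting alone gives 0.093, 0.10 and 0.19 in these classes, whose median depths were 529.2, 456.2 and 202.8 positions per library. The level in the first class was 0.758 times the untreated ES share (0.754 to 0.761). It was 0.738 times in the second (0.732 to 0.744) and 0.739 times in the third (0.729 to 0.7499). The first class thus lay slightly above the others, beyond counting error. On chromosome 15, 828 members lay in the first class and 21 in the last, at 1.28 and 1.17 times the untreated ES share. The part of repeated sequence in these departures was not tested.

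**Figure D4:**
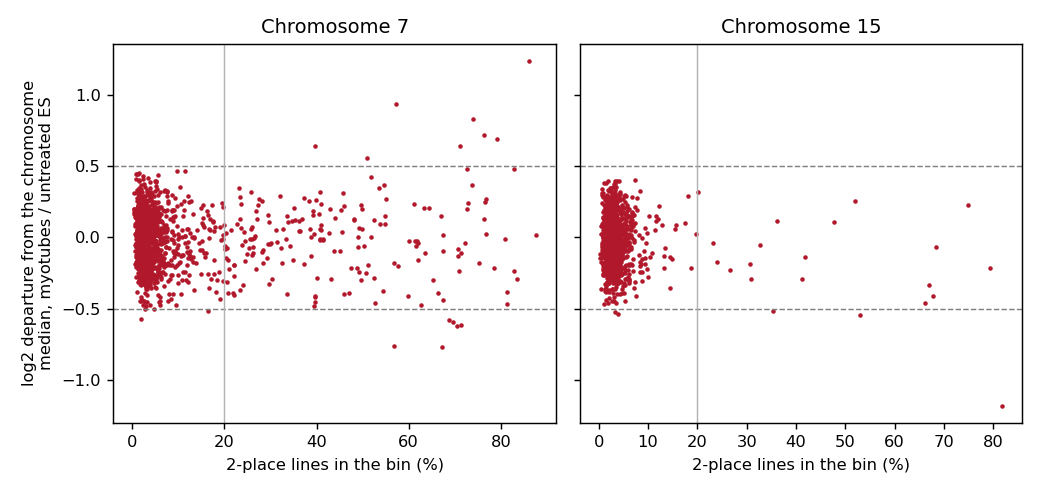
Departure of the log2 ratio of myotubes to untreated ES cells from the chromosome's median (y) against the share of 2-place lines in the bin (x), 1 point per 100 kb bin, with dashed lines at the rule of size and a grey line at 20%. All 8 upward departures on chromosome 7 lie right of the grey line, and the lowest point on chromosome 15, at -1.18, has 81.8% of 2-place lines.

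Pro-B cells showed more local departures than myotubes on the same chromosomes. Against untreated ES cells and by the rule of size, 68 members of chromosome 7 were higher (5.14%) and 153 lower (11.6%), where 7.91% and 8.49% of all autosomal bins were. On chromosome 15, 69 were higher (6.87%) and 43 lower (4.28%). On chromosome 7, 144 members departed upward (10.9%) and 49 downward (3.71%), and on chromosome 15, 92 upward (9.15%) and 25 downward (2.49%). Over all autosomes 10.6% departed upward and 4.06% downward, so the departures on these chromosomes were near or below the autosomal shares and are not a result about them. The median bin of chromosome 7 had a log2 ratio of -0.18, where the chromosome's share as a whole had -0.07. In myotubes the median and the share were nearly alike, at -0.40 and -0.41.

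The pro-B departures formed runs. Runs were not counted on the other autosomes, so they are not a result about these chromosomes. The correlation between departures of adjacent members was 0.69 and 0.70 on chromosomes 7 and 15, within the 0.55 to 0.82 of the 16 others. Chromosome 7 had 16 runs of 3 or more higher members with 65 bins in all, and 4 lower runs with 12 bins. Chromosome 15 had 9 higher runs with 47 bins and 2 lower runs with 8 bins. The longest were 8 bins on each chromosome, from 87500001 to 88300000 on chromosome 7 and from 66400001 to 67200000 on chromosome 15. The first of these held 3403 positions in myotubes, 6063 in pro-B, 4174 in treated and 3970 in untreated ES cells, and the second 6522 in myotubes, 7543 in pro-B, 4966 in treated and 4596 in untreated ES cells. Pro-B cells were highest in both. Myotubes were below the ES libraries in the run on chromosome 7 and above them in the run on chromosome 15, as on these chromosomes as a whole.

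The highest upward pro-B departure was in chromosome 15 from 63400001 to 63500000, with 711 positions in myotubes, 1720 in pro-B, 530 in treated and 545 in untreated ES cells. The ratio to untreated ES cells departed by 1.75 (1.61 to 1.89), where that of myotubes departed by 0.10. It was part of a run of 7 bins from 62900001 to 63600000 at 1.95 times the untreated ES share (1.872 to 2.026). Within the bin, 10 kb windows held 92 to 240 pro-B positions and 33 to 69 in untreated ES cells, and pro-B cells were highest in each of the 10. The bin was picked for its pro-B level, so this ranking is a description alone. On chromosome 7 the highest pro-B departure was 1.37, from 132500001 to 132600000, with 464 positions in myotubes, 1390 in pro-B, 543 in treated and 612 in untreated ES cells. Here too the departure of myotubes was small, at 0.081.

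The lowest pro-B members of chromosome 7 were rich in 2-place reads. The bin from 9900001 to 10000000 had 39 positions in myotubes, 12 in pro-B, 57 in treated and 62 in untreated ES cells, a departure of -2.13. The bin from 39000001 to 39100000 had 153 in myotubes, 73 in pro-B, 263 in treated and 280 in untreated ES cells, a departure of -1.74. In both, 2-place lines were also fewest in pro-B cells, with 34 in pro-B cells, 119 in myotubes, 188 in treated and 176 in untreated ES cells in the bin from 9900001. In the bin from 39000001 they numbered 167 in pro-B cells, 338 in myotubes, 524 in treated and 494 in untreated ES cells. On chromosome 15 the longest lower run, from 74200001 to 74700000, had 2880 positions in myotubes, 1924 in pro-B, 2760 in treated and 3047 in untreated ES cells, at 0.637 times the untreated ES share for pro-B cells (0.602 to 0.675).

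**Figure D5:**
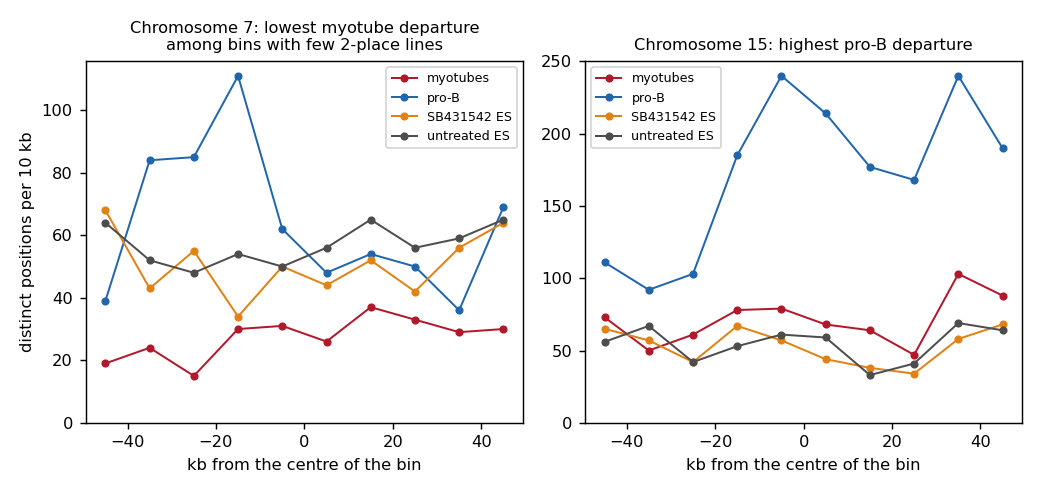
Distinct positions per 10 kb (y) by distance from the centre of the bin (x) for the myotube, pro-B, SB431542-treated and untreated ES libraries, unscaled, in a chromosome 7 bin with a low myotube count and the chromosome 15 bin with the highest pro-B departure. Myotubes are lowest in all 10 windows of the chromosome 7 bin, and pro-B cells are highest in all 10 windows of the chromosome 15 bin, at 92 to 240 positions. Both bins were picked for these levels, so the rankings are descriptions alone.

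Set against pro-B cells, myotubes were lower by the rule of size in 361 members of chromosome 7 (27.3%) and higher in 9, where 9.65% and 9.43% of all autosomal bins were. On chromosome 15 they were higher in 410 members (40.8%) and lower in 18. With the chromosome's median taken out, 61 members of chromosome 7 departed upward and 185 downward, and 17 and 110 on chromosome 15, where 4.4% and 12.3% of autosomal bins did. The median log2 ratio was -0.23 on chromosome 7 and 0.42 on chromosome 15, and its SD was 0.40 and 0.35, about as wide as that of pro-B over untreated ES cells at 0.37 and 0.34. Departures of myotubes over untreated ES cells and of pro-B over SB431542-treated ES cells, which share no library, had a Pearson correlation of -0.025 across the 1322 bins of chromosome 7 and 0.050 across the 1005 of chromosome 15. Bins are not independent, and the same value on the 16 other autosomes ran from -0.13 to 0.66.

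Few members departed between SB431542-treated and untreated ES cells. By departure from the chromosome's median, 4 members of chromosome 7 were higher and 2 lower with SB431542, and 0 of chromosome 15 either way, where 0.0423% of autosomal bins departed upward and 0.0677% downward. All 6 were rich in 2-place reads and held 13 to 82 positions in either ES library. The intervals of 4 of the 6 held 0. The widest departure, from 13800001 to 13900000, had 24 positions in treated and 13 in untreated ES cells, a departure of 0.86 (-0.15 to 1.98). The spread of the log2 ratio was 1.23 times that of counting on chromosome 7 and 1.386 times on chromosome 15, against 1.166 to 1.374 times on the 16 other autosomes, so chromosome 15 lay above all of them.

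The distal parts of both chromosomes were lower in the treated library, but this was neither confined to distal parts nor particular to these chromosomes. On chromosome 7, segments 2 and 3 were also lower, at 0.955 times the untreated share each. Best splits in this comparison had sizes of 0.065 on chromosome 7 and 0.13 on chromosome 15, against 0.046 to 0.15 on the 16 other autosomes. The largest of these, on chromosome 4 at 114900001, was also lower distally. Segment 10 of chromosome 7, from 130600001 on, had 0.927 times the untreated share (0.918 to 0.936, from 80630 against 84850 positions), and segments 8, 9 and 10 of chromosome 15 had 0.937, 0.946 and 0.957 times. The deepest bin among the 5 lowest of chromosome 7 began at 145000001, with 550 positions in treated ES cells against 711 in untreated ones, a departure of -0.37 (-0.53 to -0.21). In its 10 kb windows treated cells had 49 to 63 positions and untreated cells 63 to 81. Untreated ES cells had the highest count of the 4 libraries in that bin, with 476 positions in myotubes and 474 in pro-B cells.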

How the data were processed

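H3 ChIP-seq reads of 4 mouse libraries, 1 per group, were used. Per the file headers, the authors aligned the reads to mm8 with Bowtie, whose release is not given in the sources used here (options -n 2, -l 36, -e 70, -k 2, -m 2, best). The deposited values are signed positions, 1 line per reported place, with no count or scaling by the authors. Their sections were read here as reads with 1 and with 2 reported places, from the section names and options. Per the labels' protocols, DNA went through 18 cycles of PCR before size selection.

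Here 1-place reads were kept once per position and strand and counted in 100 kb bins. Ratios are of shares of each library's autosomal total, and 0.5 was added to each bin count before the log2 ratio. Members were called at an absolute log2 value of 0.5. A departure is a bin's log2 ratio minus its chromosome's median. Intervals are exact conditional binomial ones (95%, scipy 1.17.1) and cover counting error alone, as amplified reads are not separate molecules. The counting SD used the delta method. Named bins were the 10 highest and 10 lowest departures per chromosome in myotubes over untreated ES cells, the 5 highest and 5 lowest in pro-B and in SB431542-treated over untreated ES cells, and runs of 3 or more called bins. The scripts were tested on simulated data. Alternatives covered bin size, filter, strand, repeats, 2-place reads, scaling, rule of size and the ES library.

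The chromosomes, bins and rules were chosen with earlier results of these data known. The files use mm8 and the annotation at hand GRCm38, so no gene or sequence was placed on a bin, and GC content was not corrected.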

Additional observations from a re-analysis of the deposited data

Results flagged for a closer look

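Reads with 2 reported places are not part of the counts that the share ratios rest on. They come from the same libraries, on chromosomes chosen for their myotube level. On chromosome 15 their share in myotubes was 1.19 times that in untreated ES cells, above the untreated library. On chromosome 7 it was 0.823 times, below the untreated library. The same ratio on the 16 autosomes other than 7, 8 and 15 ran from 0.919 to 1.09.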

How the results depend on the processing

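Of 740 recomputed values, 586 stayed the same, 149 moved further and 5 changed direction. Share ratios, levels and median log2 ratios counted as the same within the counting or bin interval of the main value. Shares of bins, SDs and largest steps counted as the same within 1.5 times the main value. Where a value moved, the cause was not tested. In myotubes over untreated ES cells, the chromosome 7 share ratio was 0.759 with 2-place reads added and 0.7708 over SB431542-treated cells. The chromosome levels set beside fractions became 0.7524 and 1.275 over the autosomal total, and 0.7523 and 1.275 over the median autosomal bin. The largest step of chromosome 15 turned to 0.16 over SB431542-treated cells. At a rule of size of 0.3, 69.21% of chromosome 7 bins were lower and 60.6% of chromosome 15 bins higher.

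The share of chromosome 7 bins departing upward was 1.312% with 2-place reads added, 0.07812% at a mean of 100 or more positions, 1.964% with no filter, 1.19% in 50 kb bins, 1.444% in 500 kb bins, 4.917% at a rule of size of 0.3, 0.9834% over SB431542-treated cells and 1.449% on the plus strand. Downward it was 0.4688% at a mean of 100 or more, 1.527% with no filter, 2.227% in 50 kb bins, 0.361% in 500 kb bins, 7.186% at 0.3, 1.22% on the plus strand and 1.831% on the minus strand. On chromosome 15 the downward share was 0.199% with 2-place reads added, 1.095% in 50 kb bins, 0% in 500 kb bins, 6.269% at 0.3 and 0.995% on the minus strand. Among members with under 20% of 2-place lines, an alternative chosen after seeing the data, the shares were 0% upward and 0.3549% downward on chromosome 7 and 0.2033% downward on chromosome 15. The split of chromosomes 7 and 15 applied to the other comparisons was also chosen after seeing the data.

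In pro-B over untreated ES cells, the chromosome 7 share ratio was 0.948 with 2-place reads added, 0.9351 scaled to the autosomes other than 7, 8 and 15, 0.9754 over SB431542-treated cells, and 1.013, above 1, scaled to the median autosomal bin. On chromosome 15 it was 1.079 scaled to the median bin and 0.9968, below 1, scaled to the autosomes other than 7, 8 and 15, and the median log2 ratio turned to 0.012 with median-bin scaling. In SB431542-treated over untreated ES cells, scaling to those autosomes gave 0.9804 on chromosome 7 and 1.004 on chromosome 15. The largest step of chromosome 15 in myotubes over pro-B cells turned to -0.29 with all reads as deposited. No paired analysis was possible because each group had 1 library, and for the same reason no replicate could be left out. Bins with few positions can show only large differences at this depth.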

Other observations

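Neighbouring bins departed together. The Pearson correlation between the departures of adjacent members in myotubes over untreated ES cells was 0.56 on chromosome 7 and 0.66 on chromosome 15. At 1 Mb apart it was 0.19 and 0.39, and at 5 Mb apart 0.034 and 0.078. In pro-B over untreated ES cells it was 0.69 and 0.70 for adjacent members and 0.16 and 0.15 at 1 Mb. In SB431542-treated over untreated ES cells it was 0.21 and 0.36 for adjacent members, and still 0.29 at 2 Mb on chromosome 15. All bins of a comparison come from the same pair of libraries, and GC content was not corrected. The source of these correlations was not tested, and the values are descriptions.

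Stretches of over 10 kb without any 1-place position in 1 library, where each other library had at least 30, were listed. They were counted on these chromosomes alone, so whether their number is usual is not known. Pro-B cells had 2 on chromosome 7. One ran from 9631356 to 9665798 (34443 bp), where myotubes had 37 positions, treated ES cells 47 and untreated ES cells 53, and where pro-B cells still had 13 lines of 2-place reads against 96 in untreated ES cells. The other ran from 57708575 to 57720988 (12414 bp), where myotubes had 58 positions, treated ES cells 94 and untreated ES cells 97. Myotubes had 1 on chromosome 15, from 5893993 to 5905075 (11083 bp), with 41 positions in pro-B, 66 in treated and 53 in untreated ES cells, and myotubes had 5 lines of 2-place reads there. No such stretch was found in myotubes on chromosome 7 or in either ES library on either chromosome, nor in pro-B cells on chromosome 15.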
